A study of Mus musculus with 20 samples.

Results

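The comparison described here set mice that expressed HIV-1 Tat in the brain and received repeated methamphetamine (Meth) against mice without Tat that received saline instead. Its members were the 5 arrays titled Tat+Meth+ (Tat+/Meth) and the 5 arrays titled Tat-Meth- (Tat−/Sal), 10 of the 20 arrays of the series, and 8 of these 10 were hybridised on 1 slide. Tat+/Meth mice carried a tetracycline-binding protein under the astrocyte promoter GFAP together with a Tat transgene under a tetracycline-responsive (TRE) promoter, and were injected with 2 mg/kg Meth on 7 days. Tat−/Sal mice carried the GFAP-driven protein without the Tat transgene and were injected with 0.9% saline. All 10 were males on a C57BL/6J background, aged 6 to 7 weeks per the labels, and by the study's methods every mouse of either genotype received 100 mg/kg doxycycline daily for 7 days, so the inducer and the binding protein were shared by both groups. Tat expression was thus directed to astrocytes by the transgenes, and both differences, transgene and drug, entered this contrast together. Their separate contributions cannot be told apart here.

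The labels and the study's methods give different accounts of the tissue. By the labels and design notes the RNA came from the left hemisphere of perfused brain 24 h after the last injection. The methods instead describe the caudate putamen 1 h after a 1 mg/kg Meth challenge, with ages of 3 to 5 months. All animals received that challenge following 7 days without drug. By that account Tat−/Sal mice also received Meth before harvest, and the drug part of the contrast is repeated Meth with challenge against challenge alone. All 26 medium spiny neuron genes of the list below, among them Ppp1r1b, the dopamine-regulated phosphatase inhibitor of striatal projection neurons, and Penk, the enkephalin precursor, were well above background on all 10 arrays. So were 9 of 12 cortical markers, among them Tbr1, a transcription factor of deep-layer projection neurons, while Neurod6 and Emx1 were not well above background on all arrays of either group. These detections do not settle which account of the tissue holds.

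Levels are the log2 of the processed spot signal, shifted so that each array's 75th percentile took a common value, and a difference is always Tat+/Meth less Tat−/Sal on that scale. A gene entered the tests if a probe was well above background on all arrays of at least 1 of the groups, which left 15068 genes, 14617 of them well above background on all 10 arrays, 169 only through Tat+/Meth and 282 only through Tat−/Sal. Arrays correlated with each other as closely between groups (median 0.993 across 25 pairs) as within Tat+/Meth (0.993) or Tat−/Sal (0.994), a description across genes. The share of spots well above background averaged 62.4% ± 3.96 in Tat+/Meth and 64.8% ± 4.54 in Tat−/Sal (SD, 5 arrays each; exact two-sided permutation test, p = 0.381, where the smallest value this design allows is 0.00794). The signal of the bright corner control spots was slightly higher in Tat+/Meth, 17.29 against 17.15 (exact permutation test, p = 0.0397), and within the shared slide the corresponding means were 17.23 and 17.15 (p = 0.161, smallest possible 0.0179). Slide position was not balanced either. On the shared slide Tat−/Sal 1 to 4 occupied row 1 and Tat−/Sal 5 lay in row 2 with Tat+/Meth 1 to 3, and row 1 arrays had 63.2% to 68.9% of spots well above background against 57.6% to 61.3% in row 2. The part of row position in the differences below was not tested beyond a fit with row as a block. Within the shared slide that fit rests on 1 control array, Tat−/Sal 5. By the methods each group comprised 5 mice, and p-values measure the spread between the arrays.

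As background, methamphetamine enters dopamine terminals and releases dopamine into the striatum, where medium spiny neurons bearing Drd1 or Drd2 respond to it. A first wave of immediate early genes (transcription factors such as Fos, Fosb, Egr1 and Npas4, and effectors such as Arc) is transcribed in these neurons shortly after a stimulus and fades within hours. Tat is the viral transactivator that HIV-infected cells release, and it can act on uninfected neurons and glia.

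Very little separated the groups at the level of single genes. With all 10 arrays, 0 of 15068 genes (0%) reached an adjusted p under 0.05 with more than a 2-fold difference (limma, Benjamini-Hochberg), and the smallest adjusted p was 0.239. At unadjusted p under 0.05, 1400 genes (9.29%) differed, 613 higher (4.07%) and 787 lower (5.22%) in Tat+/Meth, and only 17 of these exceeded 2-fold. The shares of 4.07% and 5.22% are the background for every list count over 10 arrays below. The methods' t-test called 0 genes after Benjamini-Hochberg adjustment and 13 without it. The median difference over all genes was -0.015, with a median standard error of 0.086. For 14650 genes (97.2%) the 95% interval lay inside a 2-fold difference in either direction, and for 13195 (87.6%) inside 1.5-fold.

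**Figure D1:**
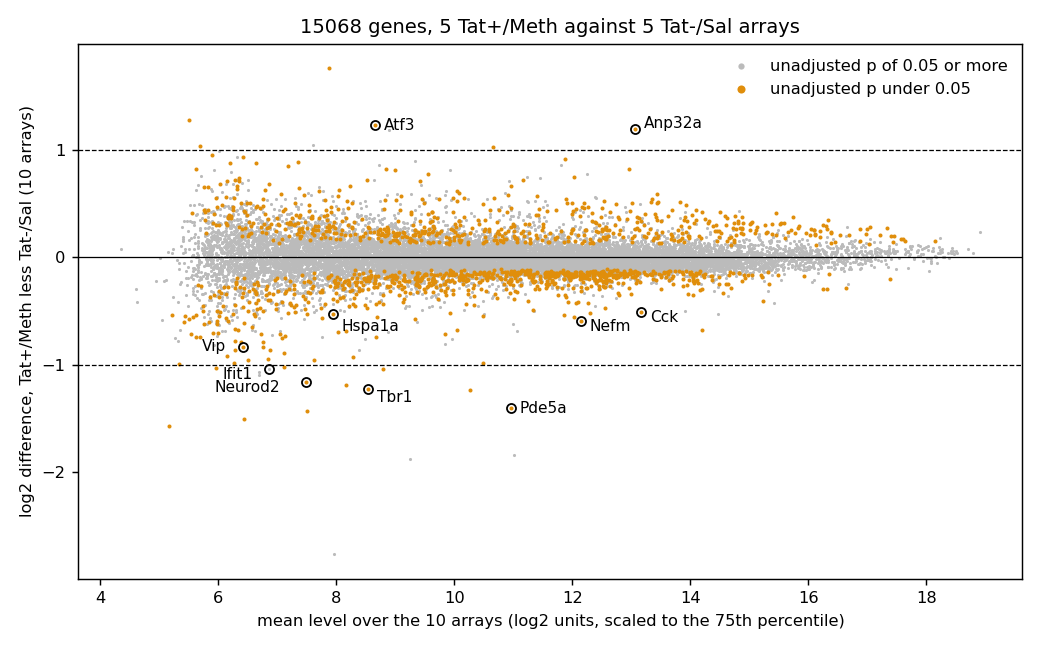
Each point is 1 of the 15068 genes tested, with its mean log2 level over the 10 arrays on the horizontal axis and the log2 difference, Tat+/Meth less Tat−/Sal, on the vertical axis. Most points lie close to 0, and the labelled genes are those with the differences described in the text, among them Atf3 (1.23) and Anp32a (1.19) above and Pde5a (-1.41), Tbr1 (-1.23) and Neurod2 (-1.17) below. Dashed lines mark a 2-fold difference, and the lowest point is Ttr (-2.77), whose arrays varied widely in both groups.

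Restricting the comparison to the 8 arrays of 1 slide gave 1 call among 15068 genes (0.00664%), Pde5a, which encodes the cGMP-specific phosphodiesterase. Tat−/Sal arrays 1 to 5 read 12.05, 11.66, 11.17, 11.74 and 11.67 for Pde5a. Tat+/Meth 1 to 3, on the same slide, read 9.82, 9.73 and 9.60, and Tat+/Meth 4 and 5, on the other slide, read 10.72 and 11.39. The 3 arrays sharing the control slide lay far below every control array, while Tat+/Meth 5 reached into the control range. Pde5a was therefore 3.83-fold lower within the slide (-1.94 ± 0.17 SE; adjusted p = 0.0247) and 2.65-fold lower over all 10 arrays (-1.41 ± 0.32; adjusted p = 0.505). Within Tat+/Meth, slide 3 exceeded slide 2 by 1.33 ± 0.24 for this gene (adjusted p = 0.439). The other groups of the series spanned a wide range as well: Pde5a read 10.65, 8.89, 11.89, 12.22 and 9.56 on the Tat+/Sal arrays and 8.23 to 10.21 on the Tat−/Meth arrays. The number of called genes changed when single arrays were left out: 0 genes were called without Tat−/Sal 2, 4 or 5 or without Tat+/Meth 2 or 3, 2 without Tat−/Sal 1 or 3, and 30 without Tat+/Meth 1. Pde5a was among the calls without Tat−/Sal 1 (adjusted p = 0.0209), Tat−/Sal 3 (0.00229) or Tat+/Meth 1 (0.00962), and its difference ran from -2.06 to -1.84 over the 8 fits. With slide row as a block the difference of Pde5a was -1.95, which rests on Tat−/Sal 5 as the only control in the row of the Tat+/Meth arrays. Within the slide 1355 genes (8.99%) differed at unadjusted p, 563 higher (3.74%) and 792 lower (5.26%), and between the slides within Tat+/Meth 0 genes were called and 1071 (7.11%) differed at unadjusted p.

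Some immediate early transcription factors were higher in Tat+/Meth at unadjusted p. Of 24 listed, 20 were tested, 5 were higher (25%, against 4.07% of all genes) and 1 was lower (5.00%, against 5.22%), and none reached an adjusted p under 0.05. The median difference of the 20 was 0.075, against -0.015 over all genes. Higher were Atf3 (stress-induced activating transcription factor), Fosb (the AP-1 subunit whose stable splice form accumulates with repeated drug exposure), Npas4 (activity-dependent factor of neurons), Maff (small Maf factor) and Btg2 (antiproliferative early gene), and lower was Ier5.

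Atf3 had the largest difference of the list. Its levels were 7.86, 8.74, 7.43, 8.55 and 7.60 on Tat−/Sal arrays 1 to 5 and 9.06, 8.68, 9.21, 9.82 and 9.55 on Tat+/Meth arrays 1 to 5. Only Tat+/Meth 2 fell inside the control range, just under Tat−/Sal 2. The difference was 1.23 ± 0.28 (2.34-fold; adjusted p = 0.505), and 0.95 ± 0.31 within the slide (adjusted p = 0.524).

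Fosb read 11.16, 11.61, 11.04, 11.38 and 11.63 in Tat−/Sal and 11.60, 11.54, 11.91, 11.89 and 12.04 in Tat+/Meth, a difference of 0.43 ± 0.14 (adjusted p = 0.505). Npas4 read 11.10, 12.13, 12.10, 12.49 and 11.89 against 12.55, 12.31, 12.30, 12.60 and 12.47, a difference of 0.50 ± 0.21 (adjusted p = 0.524). For Fosb the upper 3 Tat+/Meth arrays cleared the controls, and for Npas4 Tat−/Sal 1 lay well below the rest of the controls. Btg2 was higher by 0.50 ± 0.20 and Maff by 0.43 ± 0.18, with overlapping groups in both. Ier5 was lower by -0.22 ± 0.08, and its other probe gave -0.21.

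Other members did not pass. Fos differed by 0.37 ± 0.21 (unadjusted p = 0.109), with controls from 10.49 to 11.52 and Tat+/Meth arrays from 10.76 to 11.51. Junb differed by 0.23 ± 0.14, Egr1 by -0.19 ± 0.11, Jun by -0.09 ± 0.17 and Nr4a1 by 0.04 ± 0.14. The 95% interval for Fos ran from -0.10 to 0.84, which includes the difference of Fosb, and without Tat+/Meth 2 and 3 both genes differed by 0.48. Within the slide 2 members of the list were higher and 2 lower, with a median of -0.040. The count of 5 higher members became 3 without Tat−/Sal 1, Tat+/Meth 1, Tat+/Meth 4 or Tat+/Meth 5, 2 without Tat−/Sal 5 and 2 with no scaling between arrays, where the list's median was -0.0080.

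**Figure D2:**
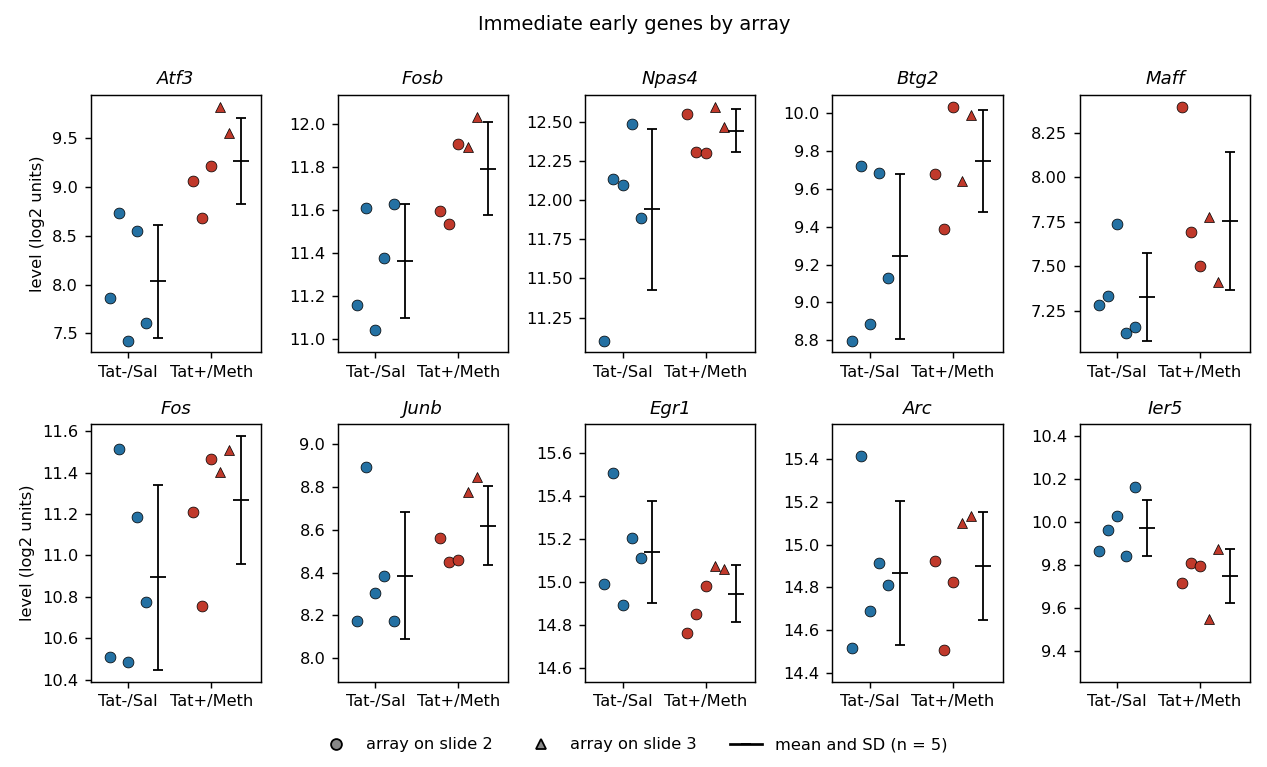
Scaled log2 level of 10 immediate early genes on each array, Tat−/Sal beside Tat+/Meth, with circles for slide 2, triangles for slide 3 and bars for mean ± SD. Tat+/Meth arrays sit mostly above the controls for Atf3 and partly above them for Fosb, Npas4, Btg2 and Maff, while Egr1, Arc and Ier5 do not lie above them.

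Promoter sequence for the early genes with a difference is shown because cAMP-responsive and AP-1 factors, which Atf3 and the Fos proteins belong to or pair with, bind short defined motifs. RefSeq windows of 250 bases before and 50 from the transcription start (GRCm38.p6) were searched. TGACG on either strand occurred in a window of Atf3, Fosb, Npas4, Btg2 and Maff and in none of Ier5, against 20.8% of 32851 promoters. That share counts single windows, whereas Maff has 3 and so had more chances of a match. Early genes that did not pass, such as Fos, Junb and Egr1, were not searched, so a relation of the motif to direction was not tested. TGACG also occurred in a window of Dnajb1, Hspb1 and Herpud1, chaperone genes described below that were lower. The full palindrome TGACGTCA, which contains TGACG on both strands, occurred for Btg2 and in 1 of 3 Maff windows, against 1.79%. TGANTCA, the AP-1 form, occurred in none of these windows (7.81% of all). Capitals mark TGACG, printed as its reverse complement CGTCA, 7 bases upstream of the start for Atf3 (chr1:191183284-191183583, minus strand), and TGACGTCA, 166 bases upstream, for Btg2 (chr1:134079106-134079405, minus strand).
Atf3: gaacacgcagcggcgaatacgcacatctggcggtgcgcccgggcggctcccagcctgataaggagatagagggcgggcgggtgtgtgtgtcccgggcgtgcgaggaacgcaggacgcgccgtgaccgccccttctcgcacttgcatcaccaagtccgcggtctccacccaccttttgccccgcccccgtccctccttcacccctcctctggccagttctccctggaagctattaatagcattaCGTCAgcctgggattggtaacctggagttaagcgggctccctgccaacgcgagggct
Btg2: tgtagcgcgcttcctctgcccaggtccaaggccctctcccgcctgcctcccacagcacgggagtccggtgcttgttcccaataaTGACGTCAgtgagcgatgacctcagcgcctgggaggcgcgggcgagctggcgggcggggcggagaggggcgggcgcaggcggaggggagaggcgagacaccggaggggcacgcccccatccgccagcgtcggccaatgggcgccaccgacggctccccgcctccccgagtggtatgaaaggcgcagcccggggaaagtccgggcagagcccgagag

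Few early effectors differed. Of 26 listed, 24 were tested, 2 were higher (8.33%, against 4.07% of all genes) and 0 lower at unadjusted p. The median difference was 0.022. The higher members were Ccn1, a secreted matrix protein, by 0.54 ± 0.18, and Gadd45g, a growth-arrest and stress gene, by 0.22 ± 0.08. Arc, the synaptic scaffold transcribed with neuronal firing, differed by 0.03 ± 0.17, with controls from 14.52 to 15.41 and Tat+/Meth arrays from 14.51 to 15.13. Dusp1, a MAP kinase phosphatase, differed by -0.01 ± 0.15. Within the slide neither effector counted as higher remained at unadjusted p, at 0.33 for Ccn1 and 0.14 for Gadd45g, and 0 were higher and 2 lower, Dusp6 (-0.36 ± 0.09) and Gadd45a (-0.30 ± 0.12).

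Among all genes, the clearest separations were of modest size. Over the 10 arrays 253 genes (1.68%) had groups that did not overlap, 80 higher (0.531%) and 173 lower (1.15%) in Tat+/Meth. Of the 15068 genes tested, 177 had separated groups, were well above background on all 10 arrays and stood at unadjusted p under 0.05 in both fits, of 10 and of 8 arrays. Of these 61 were higher and 116 lower, and the 10 with the largest differences in each direction are named here. None had an adjusted p under 0.05 in either fit.

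Anp32a, an acidic nuclear phosphoprotein, led the higher genes. It read 11.34, 12.76, 13.04, 12.06 and 13.12 in Tat−/Sal and 13.67, 13.66, 13.81, 13.56 and 13.58 in Tat+/Meth. The 5 Tat+/Meth arrays were tightly grouped while the controls were spread over more than 1 log2 unit, and the difference was 1.19 ± 0.30 (adjusted p = 0.505). A dimmer probe of the same gene gave -0.14, so its probes disagreed. On the Tat+/Sal arrays Anp32a ranged from 11.78 to 13.88, and on the Tat−/Meth arrays from 12.94 to 13.96.

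Of the other 9 higher genes, Stard5 (a lipid-transfer protein) differed by 0.58 ± 0.13, Parp11 (an ADP-ribosyltransferase) by 0.55 ± 0.13, and Klra16 by 0.64 ± 0.19. The remaining 6 rested in part on 1 array. A630012P03Rik, higher by 0.85 ± 0.35, read 8.92 on Tat+/Meth 3 and 7.22 to 7.36 on the rest of its group, and differed by 0.52 without that array. Tat+/Meth 4 stood well above the rest of its group for Ybx2 (11.23, next 9.83), Tm6sf2 (13.27, next 12.32), Pitx3 (9.88, next 8.71), Adam5 (9.59, next 8.23) and Pced1b (10.93, next 10.15). Pitx3 is the homeobox factor of midbrain dopamine neurons, and Ybx2 and Adam5 are known from germ cells. Tat+/Sal 4 and 5, 2 arrays of another group, were also high for Ybx2, Tm6sf2, Pitx3 and Pced1b, while Adam5 had no value on Tat+/Sal 4 and read 9.48 on Tat+/Sal 5. Ybx2 read 11.91 and 10.20 there against 8.81 to 9.14 on the other Tat+/Sal arrays. Without the slide 3 arrays the difference was 0.47 for Ybx2, 0.49 for Tm6sf2, 0.47 for Pitx3, 0.26 for Adam5 and 0.36 for Pced1b, against 0.78, 0.75, 0.72, 0.63 and 0.55 over all 10.

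The lower genes were of mixed kinds, from the neurofilament gene Nefm to the matrix gene Lum. Nefm, the medium neurofilament subunit, read 12.14, 12.57, 12.35, 12.40 and 12.72 in Tat−/Sal and 11.90, 11.95, 11.68, 11.86 and 11.81 in Tat+/Meth. Every Tat+/Meth array lay below every control, with a difference of -0.60 ± 0.10 over 10 arrays (adjusted p = 0.287) and -0.59 ± 0.13 within the slide (adjusted p = 0.516). On the Tat+/Sal arrays Nefm ranged from 12.18 to 12.60, and on the Tat−/Meth arrays from 12.03 to 13.01.

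Pcdh7, a protocadherin adhesion molecule, had the smallest p of the named genes. Its levels were 10.03, 10.20, 10.32, 10.20 and 10.15 in the controls and 9.67, 9.56, 9.51, 9.74 and 9.81 in Tat+/Meth. The groups were separated, the difference was -0.52 ± 0.07 (adjusted p = 0.239), and its 3 probes gave values from -0.52 to -0.21. Grm8, a presynaptic metabotropic glutamate receptor, was lower by -0.58 ± 0.13, Lum, a matrix proteoglycan of fibroblasts, by -0.55 ± 0.09, and Tmprss5, a membrane serine protease, by -0.53 ± 0.13.

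The other lower genes were Ldhal6b (-0.84 ± 0.26), C030013G03Rik (-0.74 ± 0.15), 4933421O10Rik (-0.71 ± 0.12) and Lcn6, a lipocalin, at -1.04 ± 0.28. A second probe of Lcn6 gave 0.09, and Tat+/Meth 2 and 3 carried its difference, at 7.48 and 7.55 against 8.59 to 9.02 on the other Tat+/Meth arrays. Outside the rule for named genes and chosen after its values were seen, Ccdc190 read 8.91, 10.25 and 10.15 on Tat+/Meth 2, 3 and 5 but 7.15 and 7.29 on Tat+/Meth 1 and 4, against 6.58 to 8.04 in the controls, a difference of 1.76 ± 0.62 (adjusted p = 0.505). Cntfr, a neurotrophic cytokine receptor subunit, was high on the same 3 arrays, at 10.16, 10.52 and 10.53, and lay at 8.06 and 8.19 on the others, against 7.59 to 9.69 (1.19 ± 0.58).

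**Figure D3:**
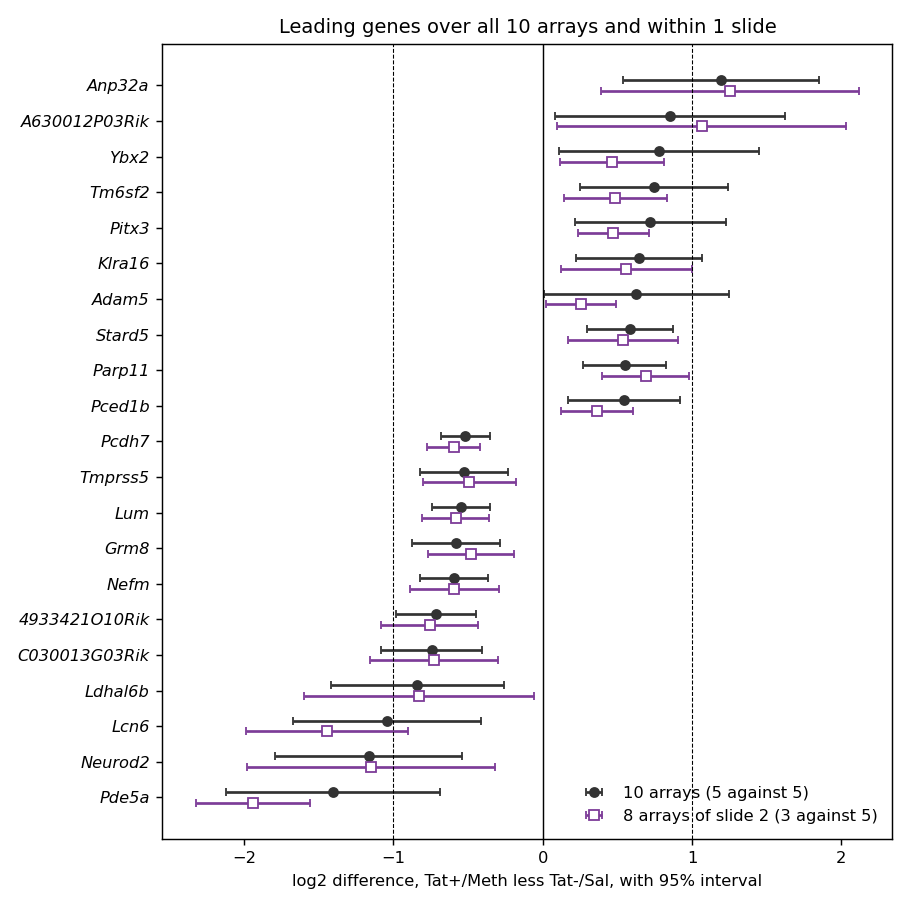
Log2 differences (points) and 95% intervals (bars) for Pde5a and the 20 genes leading in either direction, with the 10-array and the 8-array estimates side by side. The 20 leading genes were chosen to have 1 sign in both fits, and the 8 arrays are part of the 10. The 8-array value is clearly smaller for Ybx2, Tm6sf2, Pitx3, Adam5 and Pced1b and larger for Pde5a and Lcn6.

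Cortical transcription factors were among the largest differences. Neurod2, a basic helix-loop-helix factor of excitatory neurons, read 7.60, 7.78, 8.35, 9.07 and 7.55 in Tat−/Sal and 7.46, 6.70, 6.61, 6.93 and 6.83 in Tat+/Meth. Tat+/Meth 1 lay just under the lowest control, and the difference was -1.17 ± 0.28 (adjusted p = 0.505). Low levels were not particular to Tat+/Meth: Neurod2 read 8.87, 6.61, 6.96, 6.68 and 6.94 on the Tat+/Sal arrays and 6.47 to 7.58 on the Tat−/Meth arrays. Tbr1 read 8.34, 9.01, 9.48, 10.46 and 8.47 against 8.45, 7.43, 7.74, 8.32 and 7.69, a difference of -1.23 ± 0.37 with groups that overlapped.

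Of the 12 cortical markers 9 were tested, 0 were higher and 2, Tbr1 and Neurod2, lower at unadjusted p (22.2%, against 5.22% of all genes). The median difference of the 9 was -0.15. Slc17a7, the vesicular glutamate transporter of cortical neurons, differed by -0.72 ± 0.47, and Lamp5 and Rorb, also expressed outside cortex, by 0.01 each. The summed level of the list ranged from 13.01 to 13.46 in Tat−/Sal and from 12.96 to 13.21 in Tat+/Meth. Tat−/Sal 4 was the highest array for Tbr1, Neurod2 and Slc17a7. In tissue RNA, fewer cells of a type and less RNA per cell cannot be told apart, and the part of dissection in these values was not tested.

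**Figure D4:**
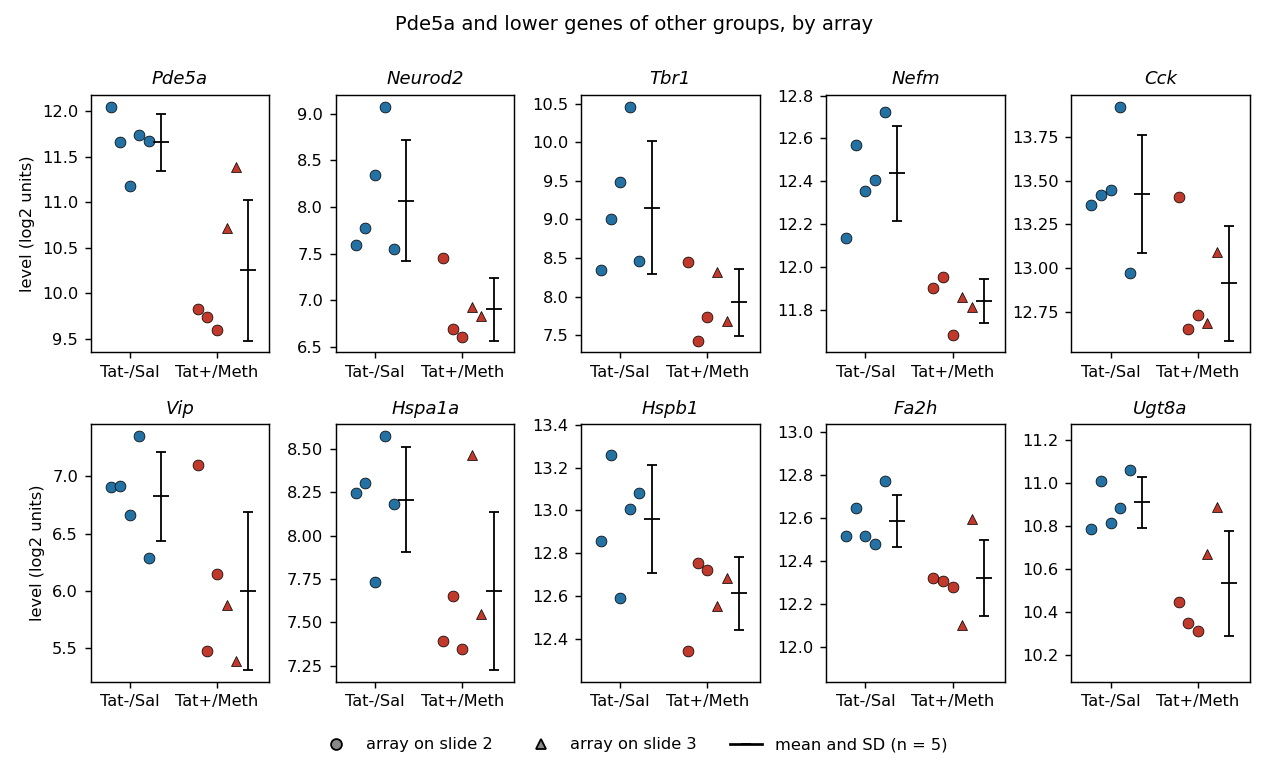
Scaled log2 level of Pde5a, Neurod2, Tbr1, Nefm, Cck, Vip, Hspa1a, Hspb1, Fa2h and Ugt8a on each array, with circles for slide 2, triangles for slide 3 and bars for mean ± SD. Nefm and Neurod2 have separated groups, Tat+/Meth 5 reaches the control range for Pde5a, and the other panels overlap.

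The striatal projection neuron programme differed little. All 26 medium spiny neuron genes listed were tested, 0 were higher and 1 was lower (3.85%), Isl1, a LIM-homeobox factor, at -0.14 ± 0.06, and the median difference was -0.0087. Ppp1r1b differed by 0.10 ± 0.08, and Drd1 by -0.02 ± 0.06 with a 95% interval from -0.15 to 0.11. Their summed level ran from 20.89 to 21.10 in both groups.

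Some dopamine receptor genes were slightly lower in Tat+/Meth. Of 14 genes for dopamine receptors, synthesis and transport, 12 were tested, 0 were higher and 2 lower (16.7%, against 5.22% of all genes) at unadjusted p. These were Drd3, at -0.28 ± 0.12, and Drd4, at -0.27 ± 0.10. The count of 2 lower became 0 without Tat−/Sal 3 or Tat+/Meth 5, and within the slide 1 member was higher and 1 lower. Drd2 read 11.02, 11.48, 11.29, 11.26 and 11.31 in Tat−/Sal and 11.15, 11.06, 10.67, 11.16 and 11.11 in Tat+/Meth, a difference of -0.24 ± 0.11 (unadjusted p = 0.0531) with 1 control array, Tat−/Sal 1, below most of the Tat+/Meth arrays.

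Few opioid and other striatal neuropeptide genes differed. Of 19 listed, 18 were well above background on all 10 arrays, and of these 1 was higher and 1 lower. Sst, somatostatin, was higher by 0.20 ± 0.08, and Cck, cholecystokinin, lower by -0.51 ± 0.19. Cck read 13.36, 13.41, 13.45, 13.92 and 12.97 in Tat−/Sal and 13.41, 12.65, 12.73, 12.69 and 13.09 in Tat+/Meth. Tat+/Meth 1 and 5 lay within the control range. Vip, vasoactive intestinal peptide, read 5.39 to 7.10 in Tat+/Meth, where 4 of 5 arrays were well above background, so it entered the tests only through Tat−/Sal.

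Of the 10 striatal interneuron markers 9 were tested, 2 were higher (22.2%, against 4.07% of all genes) and 0 lower, with a median of 0.078. These 2 were Sst and, by 0.45 ± 0.14, Nos1, the neuronal nitric oxide synthase. Of 17 ionotropic glutamate receptor genes tested 0 differed at unadjusted p, with a median of -0.027. Of 19 GABA genes 2 were higher (10.5%, against 4.07% of all genes), among them the receptor subunit Gabrb1 by 0.15. In the same list 1 was lower (5.26%, against 5.22%), the transporter Slc6a11 by -0.23.

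Several chaperone genes were lower at unadjusted p. Of 22 genes of the heat shock and unfolded protein response, 20 were tested, 0 were higher and 4 lower (20.0%, against 5.22% of all genes), with a median of -0.092. The lower members were Hspa1a (inducible Hsp70), Dnajb1 (its Hsp40 partner), Hspb1 (the small chaperone Hsp27) and Herpud1 (endoplasmic reticulum degradation), while the constitutive Hspa8 differed by 0.07 ± 0.08 and Hsp90aa1 by -0.09 ± 0.07. Hspa1a read 8.24, 8.30, 7.73, 8.57 and 8.18 in Tat−/Sal and 7.39, 7.65, 7.35, 8.46 and 7.55 in Tat+/Meth. Tat+/Meth 4, on slide 3, was the array among the controls, and the difference was -0.53 ± 0.22 over 10 arrays and -0.74 ± 0.17 within the slide (adjusted p = 0.517 and 0.516). Hspa1a has a near-identical neighbour, Hspa1b, so its signal may hold both.

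Dnajb1 was lower by -0.29 ± 0.10, Hspb1 by -0.35 ± 0.12 and Herpud1 by -0.14 ± 0.06. Hspb1 ranged from 12.59 to 13.26 in the controls and from 12.34 to 12.76 in Tat+/Meth. The count of 4 became 2 without Tat−/Sal 1, Tat−/Sal 2, Tat+/Meth 1 or Tat+/Meth 3, 6 without Tat−/Sal 3 and 1 without both Tat+/Meth 2 and 3. Heat shock factor recognises inverted repeats of GAA, and the inverted pair GAANNTTC was searched with TTCNNGAA in the same promoter windows, both on either strand since each is its own reverse complement. A match occurred for Hspa1a and Hspb1 and in no window of Dnajb1 or Herpud1, against 15.1% of 32851 promoters for either form and 7.86% for GAANNTTC. Capitals mark GAANNTTC, 117 and 97 bases upstream of the start of Hspb1 (chr5:135887669-135887968, plus strand) and 104 bases upstream for Hspa1a (chr17:34972107-34972406, minus strand).
Hspb1: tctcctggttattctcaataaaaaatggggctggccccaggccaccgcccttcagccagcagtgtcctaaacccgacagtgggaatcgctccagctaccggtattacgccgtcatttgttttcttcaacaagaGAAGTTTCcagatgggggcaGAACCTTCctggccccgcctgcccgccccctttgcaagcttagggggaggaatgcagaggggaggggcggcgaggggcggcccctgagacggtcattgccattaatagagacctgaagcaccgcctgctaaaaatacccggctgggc
Hspa1a: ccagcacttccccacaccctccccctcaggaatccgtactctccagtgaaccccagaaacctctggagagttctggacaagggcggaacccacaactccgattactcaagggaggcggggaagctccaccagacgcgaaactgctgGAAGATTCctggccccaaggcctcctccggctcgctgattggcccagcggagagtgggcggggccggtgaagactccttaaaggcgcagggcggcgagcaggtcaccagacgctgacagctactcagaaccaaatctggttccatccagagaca

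Of 24 antioxidant, glutathione and metallothionein genes, all tested, 3 were higher (12.5%, against 4.07% of all genes) and 0 lower, with a median of 0.0078. The count of 3 became 1 without Tat−/Sal 2 or Tat+/Meth 5, without both Tat+/Meth 2 and 3, and with median or no scaling. Mt3, the brain metallothionein, read 13.27, 13.12, 13.13, 13.25 and 13.36 in Tat−/Sal and 13.46, 13.48, 13.60, 13.58 and 13.89 in Tat+/Meth. Every Tat+/Meth array exceeded every control, and the difference was 0.38 ± 0.09 (adjusted p = 0.505). Mt1 and Mt2, the stress-inducible metallothioneins, differed by 0.13 ± 0.07 and 0.16 ± 0.10. Gstm1, a glutathione transferase, was higher by 0.16 and Keap1, the inhibitor of the antioxidant factor Nrf2, by 0.18.

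Interferon-response genes stood lower in the estimates, and 1 control array carried that. Of 26 listed, 22 were tested and 0 were higher or lower at unadjusted p, with 21 of 22 estimates below 0 and a median of -0.28. Ifit1, an interferon-induced inhibitor of viral translation, read 10.33 on Tat−/Sal 1 and 7.46, 6.67, 6.46 and 6.00 on Tat−/Sal 2 to 5, against 6.07, 6.42, 6.06, 6.26 and 6.91 in Tat+/Meth. Isg15, a ubiquitin-like protein, read 12.82 on Tat−/Sal 1 and 9.32 to 10.37 on the other controls, against 9.31 to 9.78. Without Tat−/Sal 1 the median of the list was -0.010.

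Inflammatory genes were few in the tested set. Of 25 cytokine, chemokine and NF-κB genes 15 were tested, 1 was higher (Tgfb1, 0.31 ± 0.10) and 1 lower (Tnfaip3, the inhibitor of NF-κB signalling, -0.19 ± 0.06), with a median of -0.097. Il1b, Icam1 and Cxcl10 were not well above background on all arrays of either group. Of 16 microglial markers 15 were tested, and 0 were higher or lower, with a median of 0.0069.

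Astrocytes were the cells to which Tat expression was directed in this model. All 15 of their markers were tested, 0 were higher or lower, and the median was -0.0060. Gfap, the intermediate filament whose promoter drives the binding protein, read 11.10, 10.87, 11.20, 11.22 and 10.49 in Tat−/Sal and 10.42, 10.87, 11.59, 10.93 and 11.05 in Tat+/Meth. The groups overlapped throughout, and the difference of -0.01 ± 0.21 had a 95% interval from -0.46 to 0.45. Of 23 reactive astrocyte genes 19 were tested, 0 were higher and 2 lower (10.5%, against 5.22% of all genes). The lower members were Hspb1 and the class I antigen gene H2-D1 (-0.49 ± 0.22), the latter from a family of near-identical genes. No probe for the viral Tat transcript was analysed here.

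Oligodendrocyte and lipid-synthesis genes were among those lower at unadjusted p. Of 15 oligodendrocyte markers 14 were tested, 0 were higher and 4 lower (28.6%, against 5.22% of all genes), with a median of -0.16 over 10 arrays and -0.23 within the slide. Among them were Ugt8a, which makes the myelin lipid galactocerebroside (-0.38 ± 0.11), Fa2h, which hydroxylates its fatty acids (-0.27 ± 0.09), and Aspa, which releases acetate from N-acetylaspartate (-0.27 ± 0.10).

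Ugt8a read 10.79, 11.01, 10.82, 10.88 and 11.06 in Tat−/Sal and 10.45, 10.35, 10.31, 10.67 and 10.89 in Tat+/Meth. All 3 Tat+/Meth arrays of the shared slide lay below the controls, Tat+/Meth 5 lay among them, and within the slide the difference was -0.54 ± 0.08 (adjusted p = 0.158). Mbp, myelin basic protein, differed by -0.01 ± 0.07. The summed level of the markers ranged from 18.41 to 18.69 in Tat−/Sal and from 18.27 to 18.54 in Tat+/Meth. Without Tat+/Meth 2 and 3 the counts were 1 higher and 0 lower. The count of 4 lower became 2 without Tat−/Sal 2, Tat−/Sal 5 or Tat+/Meth 3. At most it was 6 with 1 array left out and 7 over all alternatives. Of 8 oligodendrocyte precursor markers 2 were higher (25%, against 4.07% of all genes), Cspg4 by 0.21 and C1ql1 by 0.30. In that list 0 were lower, and the median was -0.027.

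All 19 cholesterol synthesis genes were tested, 0 were higher and 5 lower (26.3%, against 5.22% of all genes), with a median of -0.092. Among them were the pathway enzymes Hmgcs1 (-0.14), Idi1 (-0.16), Fdps (-0.14) and Sc5d (-0.15). These differences were small, between 1.10-fold and 1.12-fold. The count was 0 without Tat+/Meth 2, 1 without Tat−/Sal 2 or Tat+/Meth 1, 2 without Tat−/Sal 4, Tat−/Sal 5 or Tat+/Meth 4, and 3 without Tat−/Sal 3.

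Genes of energy metabolism and protein synthesis differed by little. Of 85 oxidative phosphorylation genes tested 3 were higher (3.53%, against 4.07% of all genes) and 0 lower, with a median of -0.0076. The higher members were Cox4i2 (0.57 ± 0.26, where Tat+/Meth 4 read 12.73 and the rest of the 10 arrays 10.82 to 11.69), Cox6b2 (0.25) and Cox7b2 (0.31), all isoforms with tissue-restricted expression. Of 83 cytosolic ribosomal protein genes 74 had estimates above 0, and the median was 0.061. At unadjusted p 6 were higher (7.23%, against 4.07% of all genes) and 0 lower. The count of 6 higher became 0 with median scaling, with quantile normalization and with no scaling, where the median was -0.022. It ranged from 1 without Tat−/Sal 4 or Tat+/Meth 5 to 12 without Tat+/Meth 4. Of 31 Eif2 and Eif4 translation initiation genes 0 were higher and 1 lower, Eif2ak3 (-0.16 ± 0.06), the kinase that slows translation under endoplasmic reticulum stress.

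Few clock and stress-hormone genes differed. All 18 clock genes were tested, 0 were higher and 2 lower (11.1%, against 5.22% of all genes), Cry1 (-0.22 ± 0.08) and Clock (-0.19 ± 0.06), with a median of -0.036. Of 16 glucocorticoid-response genes 0 were higher and 1 lower (6.25%), Errfi1 (-0.22 ± 0.10), with a median of 0.031. None of the 7 sirtuin genes differed at unadjusted p over 10 arrays, and within the slide 2 were lower, Sirt3 and Sirt4, at -0.16 each. Sirt1, a deacetylase, read 10.86 to 11.22 in Tat−/Sal and 10.73 to 10.95 in Tat+/Meth, a difference of -0.15 ± 0.08.

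Of 38 genes that the study itself followed, 37 were tested, with a median of -0.0087. At unadjusted p 5 were higher (13.5%, against 4.07% of all genes) and 2 lower (5.41%, against 5.22%). The followed genes were chosen by the study on these same samples, so their count is not independent evidence. Besides Atf3, Fosb and Maff, the higher members were Chrna2, a nicotinic receptor subunit (0.50 ± 0.13), and Ppara, a lipid-sensing nuclear receptor (0.46 ± 0.16), whose 3 probes ranged from -0.10 to 0.46. Lower were App, the amyloid precursor, at -0.15 ± 0.06, and Lingo1, a neuronal inhibitor of myelination, at -0.34 ± 0.15. Lingo1 read 9.62 and 9.71 on the slide 3 arrays and 10.28 to 10.40 on the other Tat+/Meth arrays, against 10.27 to 10.52 in the controls, and within the slide its difference was -0.08 ± 0.08.

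Ttr, transthyretin of the choroid plexus, varied widely between arrays. It read 10.62, 6.07, 13.38, 6.30 and 10.35 in Tat−/Sal and 4.60, 10.08, 6.18, 6.60 and 5.42 in Tat+/Meth, a difference of -2.77 ± 1.45 (unadjusted p = 0.0841). High and low arrays occurred in both groups. Of 10 choroid plexus and ependymal markers tested, 9 of the thalamus and hypothalamus, 8 of the septum and pallidum, 7 of blood and 4 of the cerebellum and hindbrain, 0 were higher or lower at unadjusted p. Of 14 endothelial and pericyte markers 1 was lower, the potassium channel gene Kcnj8 (-0.47 ± 0.14), and of 10 of meninges and fibroblasts 1 was lower, Lum, with a median of -0.24, and within the slide 4 were lower, with a median of -0.38.

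**Figure D5:**
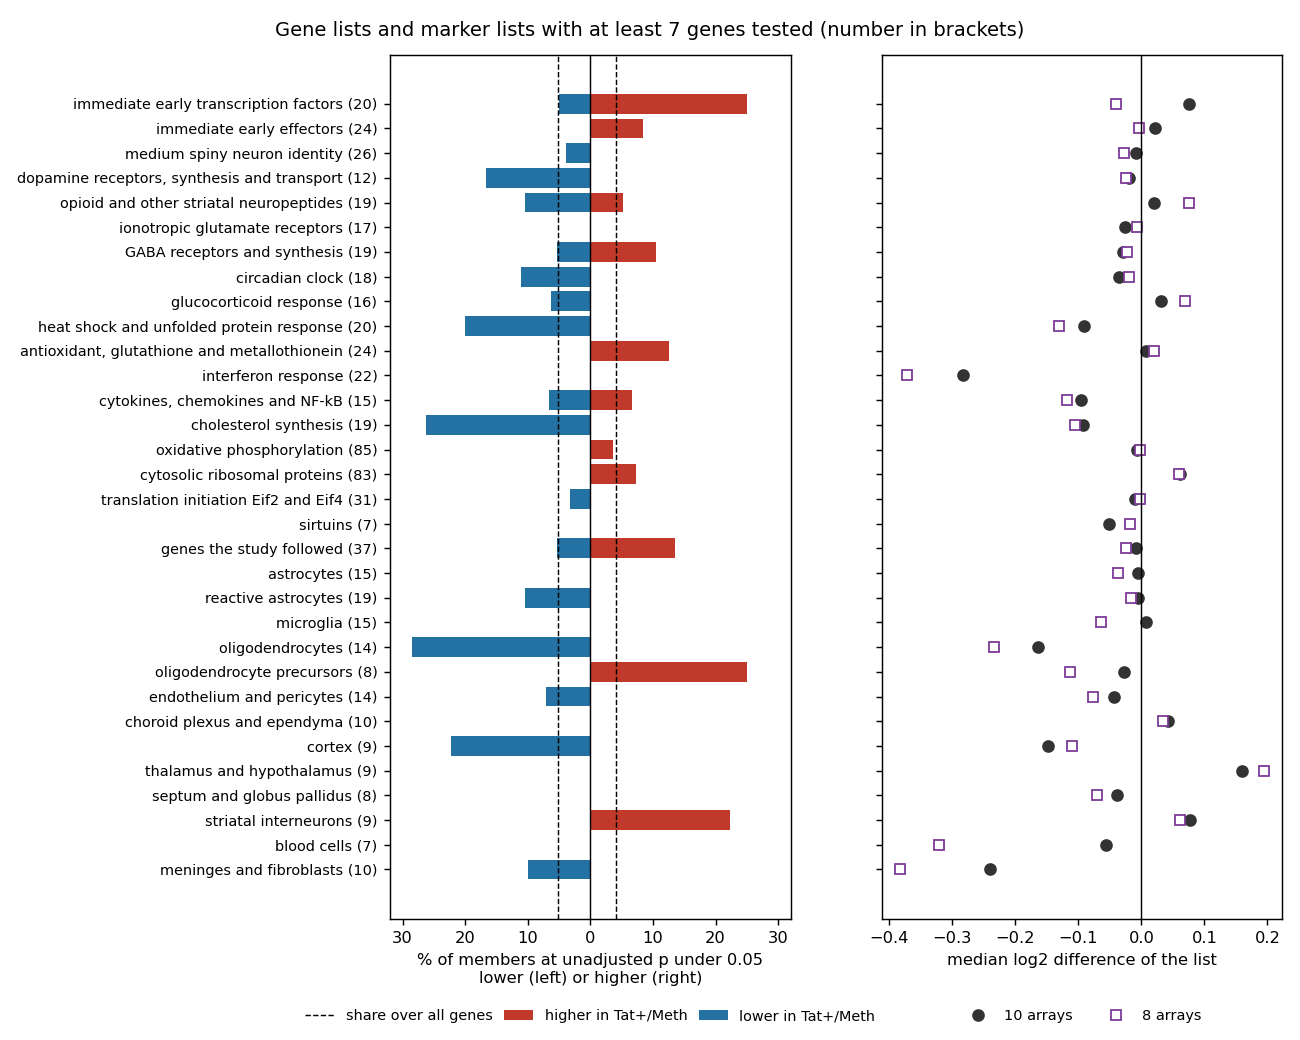
For each gene list with at least 7 tested members, the percentage higher and lower in Tat+/Meth at unadjusted p under 0.05, beside lines for the shares of all genes (4.07% and 5.22%), and the median log2 difference over 10 and over 8 arrays. The immediate early transcription factors (25%) and the oligodendrocyte precursors (25%) have the longest bars on the higher side, and the oligodendrocytes (28.6%) and cholesterol synthesis (26.3%) on the lower side, each resting on 2 to 5 genes.

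A pair of Tat+/Meth arrays shared a set of low readings. Tat+/Meth 2 and 3 both lay more than 2-fold below all other 8 arrays for 13 genes and above them for 0. Among the other pairs, out of 45 in all, the largest count below was 5 (Tat−/Sal 1 and 2). The largest count above was 4, in a different pair (Tat−/Sal 5 and Tat+/Meth 1). A gene not well above background on 1 array of each group did not enter the tests, so pairs across the groups were less able to show such dim genes. A dim gene raised only on Tat+/Meth 2 and 3 could not enter either, whereas one lowered only there could enter through Tat−/Sal. For dim genes the split between below and above is therefore partly set by the filter. Of the 13 genes 6 encode chemoreceptors, against 203 of the 15046 genes with a value on all 10 arrays. Among the 6 was Taar5, at 4.66 and 4.44 on Tat+/Meth 2 and 3 and 5.90 to 6.52 elsewhere. On arrays other than Tat+/Meth 2 and 3 the median level of the 13 genes was 6.63, against 10.67 for all genes. Without these arrays 0 genes were called, 975 differed at unadjusted p, 458 higher (3.04%) and 517 lower (3.43%), and the smallest adjusted p was 0.553. The heat shock list then held 1 lower member and the cholesterol list 0. The list of immediate early transcription factors held 5 higher and 1 lower member, with a median of 0.13. In that fit most of the Tat+/Meth arrays, Tat+/Meth 4 and 5, lay on slide 3, where this list's median deviations were 0.23 and 0.25. All controls lay on slide 2, and within that slide the list's median was -0.040.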

How the data were processed

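Total RNA of 10 mice was hybridised singly to 1-colour Agilent mouse arrays (Cy3 per the labels, Cy5 in the methods). The deposited files hold spot intensity as Agilent Feature Extraction gave it, background-subtracted by the authors' scanner software, with flags for background and outliers. The analysis took log2 of the processed signal of these deposited files less each array's 75th percentile. Control and outlier-flagged spots were left out, spots of a probe averaged, and the brightest probe well above background on all arrays of at least 1 group stood for a gene. Of 55681 probes, 27650 matched 20968 symbols through accessions in RefSeq (GRCm38.p6). Array designs place probes on another build, so no probe coordinates are given. limma 3.58.1 (R 4.3.3) fitted 1 mean per group, two-sided, with Benjamini-Hochberg adjustment over 15068 genes, and a call needed adjusted p under 0.05 and more than 2-fold. The code was tested on simulated data. Some genes that the lists count are not reported here by name. No set test was run, and lists are described by counts and medians. Named genes were those called, list members below unadjusted p of 0.05, the first members of each list and genes the study followed. Also named were the 10 leading in each direction. These were taken from separated genes well above background on all 10 arrays, with unadjusted p under 0.05 in both fits. Members and lists were chosen with earlier results of these data known.

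Groups came from sample titles. Replicate numbers did not pair the arrays (correlations of deviations from -0.170 to 0.245), and no array pair was identical (0 pairs). Alternatives were other scalings (median, quantile, none), normexp with offset 50 on median foreground and background, the series table's values, in the authors' processed intensity units and set to at least 1, other filters and probe rules, a mean-variance trend, all 20 arrays, slide, slide row or replicate as blocks, the methods' t-test and limits, and leaving out each array. The number of arrays limits the precision.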

Additional observations from a re-analysis of the deposited data

Results flagged for a closer look

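Of 114 sets of 5 values tested for 1 array far from the rest of its group (Dixon's ratio above 0.71), 11 (9.65%) exceeded the limit. Of these, 7 were genes and 4 were summed levels of gene lists. The genes were chosen for large differences, which 1 extreme array can produce, so the share cannot be set against the 1 in 20 of chance. In 5 genes the array was Tat+/Meth 4: Ybx2 at 11.23 (nearest 9.83), Tm6sf2 at 13.27 (12.32), Pitx3 at 9.88 (8.71), Adam5 at 9.59 (8.23) and Pced1b at 10.93 (10.15). A630012P03Rik read 8.92 on Tat+/Meth 3 (nearest 7.36), and 4933421O10Rik read 7.28 on Tat−/Sal 3 (nearest 7.04).

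Among the summed levels of gene lists, the interferon response stood at 16.31 on Tat−/Sal 1 (nearest 15.06) and the immediate early effectors at 17.76 on Tat−/Sal 2 (nearest 17.50). Endothelium and pericytes stood at 15.47 on Tat−/Sal 3 (nearest 15.23), and the ionotropic glutamate receptors were low on Tat+/Meth 4, at 15.76 (nearest 15.94).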

How the results depend on the processing

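Over 10 arrays the count of called genes was 0 under the scalings, filters and probe rules tried. It was 13 with the methods' t-test unadjusted (3 higher, 10 lower) and 0 to 1 when each array was left out (1, Itga9, without Tat−/Sal 1). With slide as a fixed block it was 1 (Pde5a). All controls lay on 1 slide, so that fit estimates the within-slide difference again and is no separate call. The median over all genes was -0.012 in both. Within the slide the single call became 2 with no scaling (Pde5a, and Klhl14, which entered only through Tat−/Sal), 0 with no filter, 0 with all 20 arrays, 0 at the stricter limits (adjusted p under 0.01 and 3-fold), 34 with the methods' t-test unadjusted (12 higher, 22 lower) and 0 with it adjusted, 6 with slide row as a block (1700066M21Rik, F730043M19Rik, Jazf1, Pcdh11x, Procr and Trim61), 0 with a replicate block, and 0 to 30 when each array was left out. The 30 were found without Tat+/Meth 1 (29 lower, 12 of them among the 13 genes low on Tat+/Meth 2 and 3). The slide-row fit and the fits without both Tat+/Meth 2 and 3 were added after seeing the data. The causes were not tested.

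Pde5a within the slide was -1.94 with no filter (adjusted p = 0.155) and with all 20 arrays (adjusted p = 0.716). It was -1.91 with the replicate block (adjusted p = 0.440) and -1.95 with slide row, against Tat−/Sal 5 alone. It ran from -2.06 to -1.84 when each array was left out. Genes at unadjusted p numbered 903 to 1584 over 10 arrays when each was left out (903 without Tat−/Sal 2), and within the slide 2116 with median scaling, 894 with slide row and 841 to 1821 when each was left out. Between slides within Tat+/Meth, 0 to 57 genes were called when each array was left out (57 without Tat+/Meth 5, 20 without Tat+/Meth 1, 2 without Tat+/Meth 4), where a lone slide 3 array is assumed to vary like the others.

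Of the 1400 genes at unadjusted p, 43.8% were higher, and this share was 23.3% with median scaling, 36.7% with quantile normalization and 10.1% with no scaling, which moved the median of all genes to -0.097. Within the slide the shares were 41.5%, 9.83%, 32.1% and 11.7%. The replicate number as a block left 0 calls and 1562 genes at unadjusted p over 10 arrays, and 0 calls and 1150 within the slide. The 79 genes called, leading a direction or list members at unadjusted p under 0.05 kept their sign in 1975 gene and alternative pairs. Of these pairs 1955 moved by less than 1 SD. The genes were chosen on these same arrays and the alternatives refit most of them, so this outcome was largely fixed in advance. Jun, Dusp1 and Drd1, which did not pass, turned sign without Tat+/Meth 2 and 3 (0.038, 0.0090 and 0.0078).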
